A study of Mus musculus with 2 samples.

Results

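Fibroblast growth factors (FGFs) and their receptors were examined in perigonadal white adipose tissue (WAT) of perilipin A transgenic (PeriA Tg) and wild type (WT) mice. The 10 genes were the ligands *Fgf1*, *Fgf2*, *Fgf7*, *Fgf10*, *Fgf13* and *Fgf21*, the receptors *Fgfr1*, *Fgfr2* and *Fgfr3*, and the coreceptor *Klb*, chosen by symbol from the 18193 genes that the array annotation names alone. They were measured by 20 probe sets, short sets of probes that each read 1 stretch of transcript. The Tg mice were female, 30 weeks old, of C57BL/6 background, and carried human PeriA heterozygously under the aP2 promoter/enhancer, which drives expression in adipocytes and is also known to be active in macrophages. The WT mice were female littermates without the transgene, of the same age, and both genotypes were fed a high-fat diet (HFD). RNA of 3 mice per genotype was pooled, and each pool was hybridised to 1 Affymetrix array. With 1 array per genotype, the values have no replicate error, and no test was possible.

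FGFs are signals between cells that act on receptor tyrosine kinases. Most of them stay close to the cell that releases them, because they bind heparan sulphate on cell surfaces and need it to engage a receptor. FGF21 binds heparan sulphate weakly, travels in the blood and needs β-Klotho, the product of *Klb*, beside FGFR1, a pair for which adipocytes are a main target. FGF13 belongs to a branch of the family that is not secreted and binds voltage-gated sodium channels inside the cell.

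The question was how each of these genes differed between the WAT of Tg and WT mice. The signal of a probe set is its brightness on a linear scale after each array was scaled as a whole, and the signal log ratio is log2 (Signal of Tg/Signal of WT). Values over 0.3 and under -0.3 were counted. Probe sets with a signal of 98.2 or more on either array, the median over both arrays, passed a filter, and those below it on both are called near background here. Signals of different probe sets depend on their probes, so that no gene's level is set against another's. Of the 20 probe sets, 16 passed, with at least 1 for each of the 10 genes, and 4 were near background. Of the 16, 6 were over 0.3 and 5 were under -0.3, or 37.5% and 31.25%, against 17.8% and 21.5% of all 23713 probe sets that passed. Read from the brightest probe set of each gene, 5 of the 10 genes were over 0.3 and 2 were under -0.3, against 16.6% and 16.9% of 11587 genes. The median signal log ratio was 0.33 over these 10 genes and 0.02 over the 11587. Of the 7 probe sets whose higher signal reached 470.5, the 75th percentile, 1 was over 0.3 and 4 were under -0.3, against 14.1% and 14.7% of all probe sets this bright. Of the other 9 that passed, 5 were over 0.3 and 1 was under -0.3, against 21.6% and 28.4%. Of these 9, *Fgf21*, among those over 0.3, and *Fgf2*, the one under -0.3, reached the filter on 1 array only, so that the filter fixed their direction. Without replicates, these shares describe a pair of arrays, and probe sets of 1 gene read the same RNA.

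**Figure D1:**
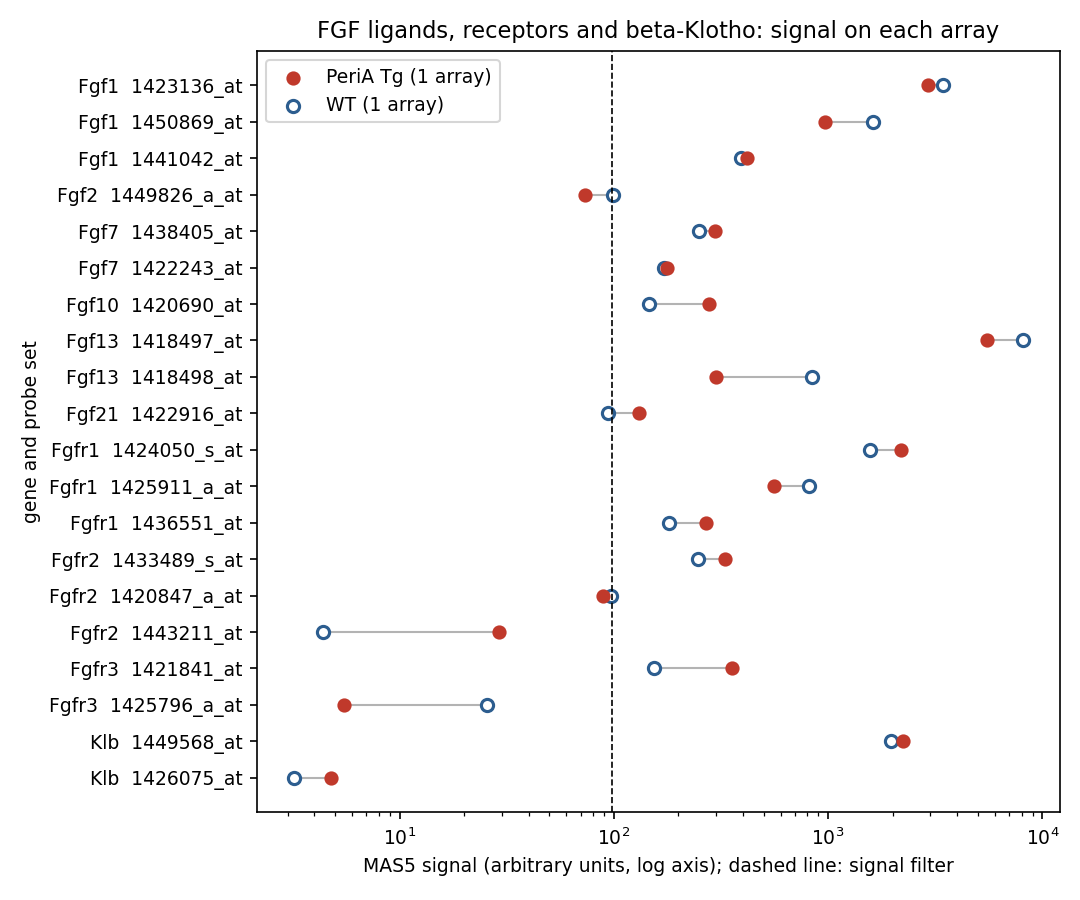
Signals of all 20 probe sets on a log axis, 1 row per probe set, with the PeriA Tg array as filled points and the WT array as open points, and the filter of 98.2 as a dashed line. *Fgf13* and *Fgf1* have dimmer Tg than WT signals on their brightest probe sets, *Fgf10* and *Fgfr3* have brighter Tg signals, and the second probe sets of *Klb* and *Fgfr3* and a pair for *Fgfr2* lie left of the line on both arrays.

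Among the paracrine ligands, *Fgf10* had the highest signal log ratio. FGF10 is made by stromal cells, binds FGFR2 and is needed for the formation of WAT in mice. Its only probe set, 1420690_at, had a signal of 276.5 on the Tg array and 145.8 on the WT array, a ratio of 1.90 (signal log ratio 0.92). *Fgf7*, which encodes keratinocyte growth factor, a related ligand of FGFR2, stayed between the thresholds on both of its probe sets. They had 295.0 in Tg against 250.2 in WT (0.24) and 177.7 in Tg against 171.3 in WT (0.05). FGF10 and FGF7 are products of fibroblasts and their relatives in many tissues, so that markers of fibroblasts and preadipocytes were read beside them. Of 9 such markers measured, 8 passed, with 1 over 0.3 (*Pdgfra*, 0.32) and 1 under -0.3 (*Col1a1*, -0.54) on their brightest probe sets. The other passing probe sets of *Pdgfra* had -0.66 and 0.02, so that it is given no direction. Among the dimmer passing probe sets, *Dcn* had 0.53 and *Dpp4* had 0.58, 0.48 and 0.22, whereas *Col1a1* had -0.59 and *Col3a1* had -0.22. The summed signal of these markers was 79968 in Tg and 77396 in WT. It weighs the brightest markers most, such as *Dcn* with 34127 in Tg and 30902 in WT. The preadipocyte marker *Dlk1* was near background on both arrays. In whole tissue, a difference in the number of cells of a type and a difference in RNA per cell cannot be told apart.

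*Fgf1*, a ligand of all FGF receptors that mouse adipose tissue makes in response to HFD, was read by 3 probe sets. The brightest, 1423136_at, had 2934 in Tg and 3428 in WT (-0.22). The next, 1450869_at, had 967.3 in Tg and 1613 in WT (-0.74), and the dimmest, 1441042_at, had 416.7 in Tg and 393.2 in WT (0.08). Thus 1 of the 3 was under -0.3, and the signal log ratios of this gene spanned 0.82. *Fgf2*, basic FGF, a mitogen of endothelial cells and preadipocytes, had 73.2 in Tg and 99.4 in WT (-0.44). This probe set passed by its WT signal alone, just above the filter.

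*Fgf13* was lower in Tg than in WT on both of its probe sets. The brightest, 1418497_at, had 5498 in Tg and 8141 in WT (-0.57), so that the WT signal was 1.48 times the Tg signal. The other, 1418498_at, had 300.3 in Tg and 837.8 in WT (-1.48), 2.79 times higher in WT. Both probe sets were under -0.3, but their signal log ratios lay 0.91 apart. Of 8 markers of mature adipocytes measured, all of which passed, 1 was under -0.3 on its brightest probe set (*Lep*, leptin, -0.64) and none was over 0.3. The summed signal of these brightest probe sets was 253013 in Tg and 245610 in WT. The dimmer probe sets differed from this, with 0.55, 0.42 and 0.27 for *Fabp4*, 0.46 for *Pnpla2* and -0.003 for *Lpl*. The brightest of *Fabp4*, at 53339 in Tg and 51832 in WT, lay near the highest signal of 56988. The part of adipocyte number in the signal of *Fgf13* was not tested. RefSeq lists 4 start sites for *Fgf13*, whose transcripts differ in their first exons, and which of them each probe set reads was not analysed here.

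*Fgf21* encodes the hormone that acts on adipocytes through β-Klotho and is made in adipose tissue and liver of mice. Its only probe set, 1422916_at, had 130.3 in Tg and 94.0 in WT, a ratio of 1.39 (0.47). Both signals were dim, and the probe set passed by its Tg signal alone. The stretch before its start site is shown because it holds 2 short motifs, each of a class of factors that includes a listed regulator. It comprises 250 bases of RefSeq's GRCm38.p6 at chr7:45615491-45615740 on the minus strand, with the motifs in capitals.
*Fgf21*: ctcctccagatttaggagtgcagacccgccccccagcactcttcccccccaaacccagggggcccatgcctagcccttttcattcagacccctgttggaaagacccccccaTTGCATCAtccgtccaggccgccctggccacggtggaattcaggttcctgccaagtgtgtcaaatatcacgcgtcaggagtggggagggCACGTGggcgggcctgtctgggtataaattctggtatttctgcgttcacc
The first motif, 139 bases before the start, is TTGCATCA, the reverse complement of TGATGCAA, an element of the kind bound by ATF4 with a C/EBP partner. The second, 50 bases before the start, is the E-box CACGTG, of the kind bound by basic helix-loop-helix factors, the class to which ChREBP belongs. Which letters ChREBP itself uses at this gene was not analysed here. On either strand, TGATGCAA occurs in 0.791% and CACGTG in 6.02% of 32851 stretches of this length before start sites, and among the 12 such stretches listed for 8 of the 10 genes, each occurs in that of *Fgf21* alone. The other motifs searched were TGACGTCA, which is in none of the 12, and AGGTCA, which is in that of *Fgf7* and in 14% of all. A match shows only that the letters are there.

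Of 12 regulators of *Fgf21* and *Klb*, 11 passed the filter, with 5 over 0.3 and none under -0.3, against 16.6% and 16.9% of all genes. *Ppara*, the fatty acid sensor that induces *Fgf21* in mouse liver, had 591.0 in Tg and 151.2 in WT (1.97). Of its other 2 probe sets, 1 had 1.45, and the other, with 448.2 in Tg and 79.9 in WT (2.49), passed by its Tg signal alone. *Pparg*, the master regulator of adipocytes, had 6234 in Tg and 4204 in WT (0.57). *Ppargc1a*, a coactivator that was dim on both arrays, had 138.7 in Tg and 100.1 in WT (0.47). Its second passing probe set, with 100 in Tg and 49.7 in WT (1.01), passed by its Tg signal alone, and its others were near background. The others over 0.3, named after their values were seen, were *Nr4a1* (0.35) and *Creb1* (0.32). The dimmer passing probe sets of *Creb1* had 0.32 and -0.20. *Atf4* and *Mlxipl*, which encodes ChREBP, were between the thresholds on their brightest probe sets. *Atf4* had 3169 in Tg and 2948 in WT (0.10), and *Mlxipl* had 582.9 in Tg and 555.4 in WT (0.07). The second passing probe set of *Atf4* had 0.41. Brown adipocyte markers, to which *Ppargc1a* also belongs, stood far higher in Tg. Of 10 measured, 8 passed, all of them over 0.3 with a median of 2.83, and their summed signal was 27629 in Tg and 4906 in WT. Of these 8, *Elovl3* and *Dio2* passed by their Tg signals alone. The part of brown adipocytes in the values of *Fgf21* and its regulators was not tested.

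*Fgfr1*, the main FGF receptor of adipocytes, had probe sets on both sides of 0. The brightest, 1424050_s_at, had 2182 in Tg and 1575 in WT (0.47), and the dimmest, 1436551_at, had 270.4 in Tg and 181.7 in WT (0.57). In contrast, 1425911_a_at had 557.9 in Tg and 815.2 in WT (-0.55). The span of 1.12 compares with a median span of 0.51 among the 1306 genes with 3 passing probe sets, of which 11.9% had values both over 0.3 and under -0.3. The array's suffix _s_at marks probes shared between transcripts and _a_at probes for several transcripts of 1 gene. No direction is given for *Fgfr1* as a whole.

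*Fgfr3* had the highest signal log ratio of the 10 genes. FGFR3 is known mainly for restraining the growth of bone and is also made by epithelia. Its brightest probe set, 1421841_at, had 356.9 in Tg and 154.2 in WT, a ratio of 2.31 (1.21). The other, 1425796_a_at, was near background, with 5.50 in Tg and 25.7 in WT. *Fgfr2*, the receptor for FGF7 and FGF10 in its epithelial form, had 328.8 in Tg and 245.8 in WT on 1433489_s_at (0.42). Its other probe sets were near background. One lay just under the filter, with 88.7 in Tg and 97.1 in WT (-0.13), and the other had 29.2 in Tg and 4.40 in WT. For comparison, 80 probe sets of olfactory and vomeronasal receptor genes, of which 2 passed the filter, had a 95th percentile of 63.6 in Tg and 67.1 in WT. Their signal log ratios had an SD of 1.79. Among all probe sets under the filter, 37.4% were over 0.3 and 40.4% under -0.3, so that the ratios of probe sets this dim are not read.

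Epithelia are among the cells that make FGFR2 and FGFR3, and perigonadal fat is covered by mesothelium and lies beside the reproductive tract. Markers of epithelia, mesothelium and reproductive tract were therefore read with both receptors. Of 7 epithelial markers, only the keratins *Krt7*, *Krt8* and *Krt18* passed, with 0.43, 0.17 and 0.60 on their brightest probe sets. The other passing probe sets of *Krt8* had 0.54 and 0.28. In contrast, the defining markers *Epcam*, *Cdh1*, *Cldn3* and *Cldn4* were near background on both arrays. The summed signal of the epithelial list, 1614 in Tg and 1323 in WT, includes these markers near background and is not read. All 6 mesothelial markers passed, with 2 over 0.3 on their brightest probe sets (*Wt1*, 0.70, and *Upk1b*, 0.46) and none under -0.3. The other passing probe sets of *Upk1b* had 0.23, -0.02 and -0.23. The summed signal of the mesothelial list was 9434 in Tg and 7887 in WT. Of 8 markers of ovary and reproductive tract, 1 passed, *Star*, with 229.1 in Tg and 161.5 in WT (0.50). Its second passing probe set, with 208.8 in Tg and 95.2 in WT (1.13), passed by its Tg signal alone. The summed signal of this list, 513.7 in Tg and 472.9 in WT, includes the markers near background and is not read. The part of these cells in the signals of *Fgfr2*, *Fgfr3* and *Fgf10* was not tested.

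*Klb* was close to equal on the arrays. Its bright probe set, 1449568_at, had 2232 in Tg and 1965 in WT, a ratio of 1.14 (0.18). The other, 1426075_at, was near background, with 4.80 in Tg and 3.20 in WT. *Kl*, the coreceptor for FGF23, was near background on both of its probe sets, and so was *Fgf23*.

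**Figure D2:**
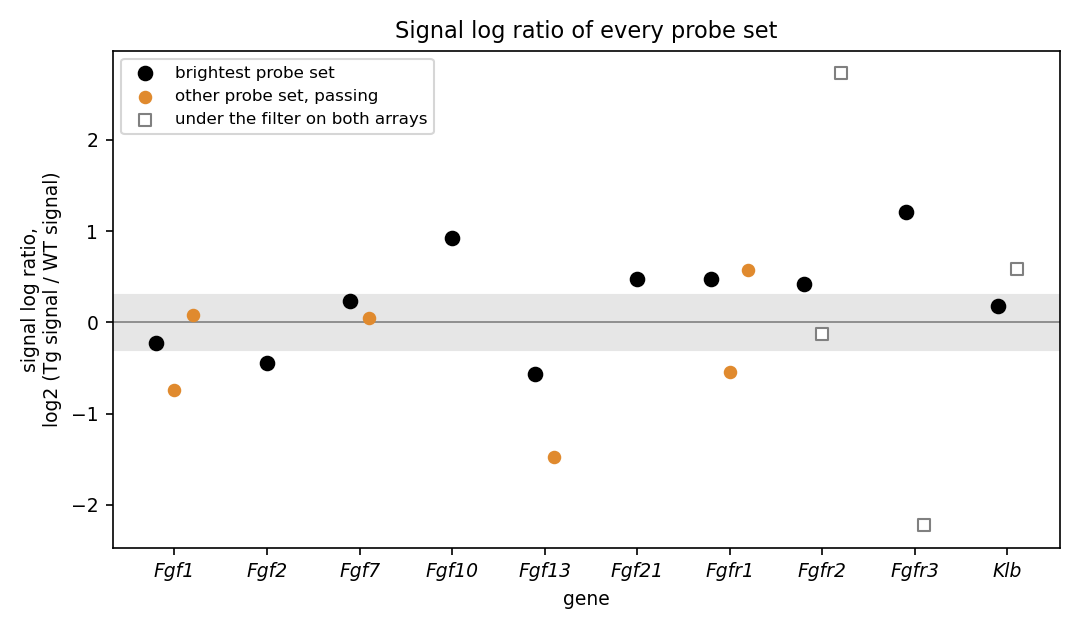
Signal log ratio of every probe set, grouped by gene, with the brightest of each gene in black, other passing probe sets in orange and those near background as open squares. The grey band covers -0.3 to 0.3. *Fgf13* lies under the band on both probe sets, *Fgf10* and *Fgfr3* lie over it, *Fgf1* and *Fgfr1* have probe sets on both sides of 0, and the squares reach 2.73 and -2.22.

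In the 4 genes with several passing probe sets, the dimmer one had the lower signal log ratio in 4 of 6 pairs, against 59.3% of 8796 such pairs among all genes. A difference between the arrays stands beside this. For bacterial poly-A controls, which are labelled with the sample, the signal log ratio of the 5' probe set minus that of the 3' one had a median of -0.55 over 8 pairs, all of them negative. These pairs read only 4 transcripts, *dap*, *lys*, *phe* and *thr*. For hybridisation controls, added after labelling, the median was -0.005. For *Actb*, *Gapdh* and pyruvate carboxylase the difference was -0.25, -0.33 and -0.16. Pairs with any signal under the filter were left out, among them 0.44 for another poly-A control and -1.67 for the transferrin receptor. The part of this 5' difference in the spread of *Fgf1*, *Fgf13* and *Fgfr1* was not tested. The pooled SD between probe sets of 1 gene was 0.41 over 5260 genes, larger than the threshold. This is the spread within the same pair of arrays at all levels of brightness, it holds no spread between mice or pools, and no value is judged by it.

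**Figure D3:**
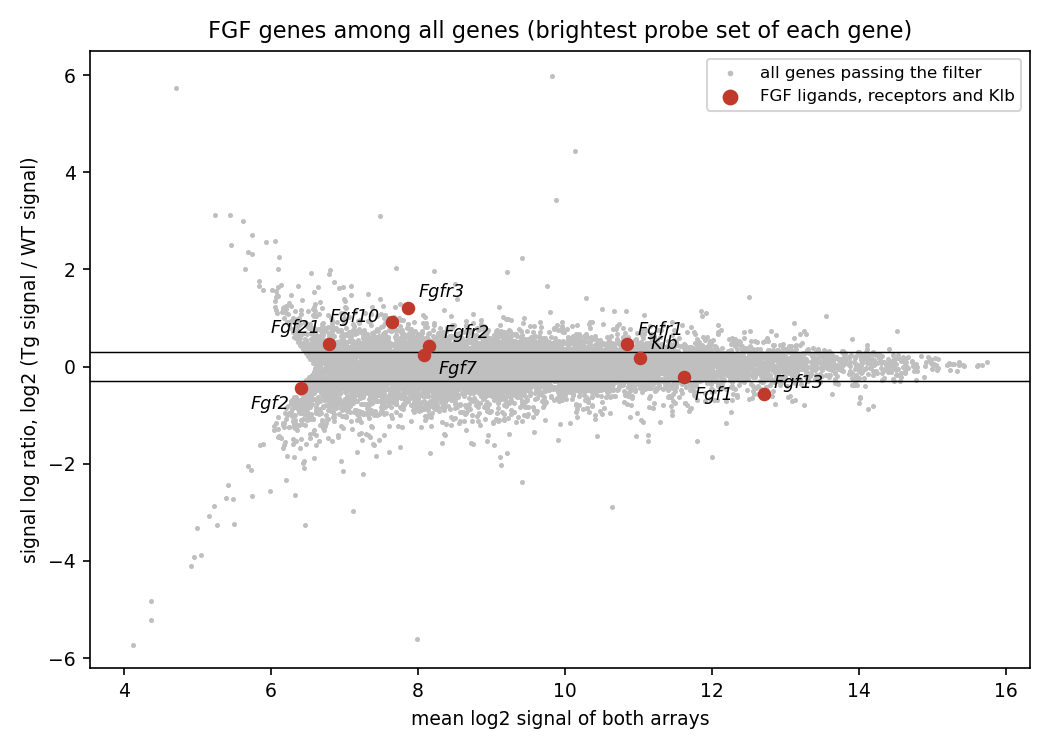
Signal log ratio of the 11587 genes that passed the filter, in grey, by their mean log2 signal over the arrays, with the FGF genes as larger red points, all read from the brightest probe set, and lines at 0.3 and -0.3. *Fgfr3* and *Fgf10* lie at 1.21 and 0.92 among dim genes, where the grey cloud is wide, and *Fgf13* lies at -0.57 to the right, where it is narrow.

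Other members of the family were mostly near background. Of 16 other ligands, 5 passed on their brightest probe set. *Fgf14*, a relative of *Fgf13* that also binds sodium channels, had 227.8 in Tg and 81.8 in WT (1.48). It passed by its Tg signal alone, and its other 3 probe sets were near background. *Fgf18*, a ligand of FGFR3, had 210.8 in Tg and 149.5 in WT (0.50). *Fgf9* had 190.6 in Tg and 196.3 in WT (-0.04) and -0.33 on its second passing probe set. *Fgf11* had -0.02, and *Fgf4*, just over the filter, had 0.09. The receptor *Fgfr4* was near background on its 5 probe sets, and *Fgfrl1*, a receptor without a kinase domain, had 6941 in Tg and 6818 in WT (0.03).

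The genes that carry, restrain or follow the signal, with the regulators of *Fgf21* and *Klb* given above, showed differences in both directions. Of 77 genes in 6 lists, 69 were measured and 59 passed, of which 13 were over 0.3 and 7 under -0.3, or 22.0% and 11.9%, against the 16.6% and 16.9% of all genes. The 11 passing regulators, a list of factors that act on the FGF genes themselves, held 5 of the 13 and none of the 7. These shares are thus not those of the carriers, inhibitors and targets of the signal alone. Among 12 transducers, which link the receptor to the ERK cascade and other routes, 1 was over 0.3 and 2 were under -0.3. The adaptor *Grb2* had 637.8 in Tg and 933.9 in WT (-0.55), *Plcg1*, phospholipase C-γ1, had -0.41 and *Sos2*, an activator of Ras, had 0.40.

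Feedback inhibitors, which ERK signalling induces and which then dampen it, had 3 of 10 over 0.3 and 1 under -0.3, with a median of 0.16. This median was 0.003 with the median over the probe sets of each gene and -0.22 on the second-brightest probe sets. Of the phosphatase genes, *Dusp4* had 785.6 in Tg and 466.2 in WT (0.75), and *Dusp6*, the brightest, had 1084 in Tg and 895.3 in WT (0.28). *Dusp5*, the one under -0.3, had 90 in Tg and 182.8 in WT (-1.02) and passed by its WT signal alone. *Spry4* had 473.0 in Tg and 345.2 in WT (0.45), and its second passing probe set had 0.01. The third over 0.3, named after its values were seen, was *Spry2* at 0.33. Of 6 target genes of FGF and ERK signalling, only *Fos*, an early response gene, was past a threshold on its brightest probe set, with 1107 in Tg and 2003 in WT (-0.86). *Etv5*, an ETS factor that FGF signalling induces, had 0.03 on its brightest, and its other 2 (-0.67 and -0.60) passed by their WT signals alone. *Slc2a1*, which FGF21 induces in adipocytes, had 0.17 on its brightest probe set and -0.02 and -0.07 on the others. *Egr1* had -0.13.

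Heparan sulphate carriers had 1 of 9 over 0.3 and 3 under -0.3. *Sdc1*, syndecan-1, had 397.4 in Tg and 838.1 in WT (-1.08), and 2 of its other probe sets had -0.79 and -0.66. The fourth, with 10.9 in Tg and 139.6 in WT, passed by its WT signal alone. *Gpc1*, glypican-1, had 417.0 in Tg and 872.1 in WT (-1.06). *Sdc3* had passing probe sets on both sides of the thresholds, at -0.49 on the brightest and at -0.81 and 0.38 on the others, and is given no direction. The one over 0.3, named after its values were seen, was *Sdc4* at 0.49, with 0.63 on its second probe set. Of 11 enzymes that make or trim heparan sulphate, 3 were over 0.3 and none was under -0.3. These were the sulphotransferase *Hs3st1* (0.59), the sulphatase *Sulf1*, with 1144 in Tg and 764.6 in WT (0.58), and *Hpse*, heparanase (0.45). Of 8 macrophage markers, 3 were under -0.3 and none over 0.3, against 16.9% and 16.6% of all genes. These 3 were *Itgax* (-1.35), *Cd68* (-1.13) and *C1qa* (-0.47). The other 5 lay between the thresholds on their brightest probe sets, among them *Mrc1* (-0.004) and *Cd163* (0.10). The summed signal of the list was 43155 in Tg and 52508 in WT. The part of macrophages in the values of the heparan sulphate genes was not tested. Endothelial markers had 1 of 8 under -0.3 and a summed signal of 9356 in Tg and 10469 in WT.

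**Figure D4:**
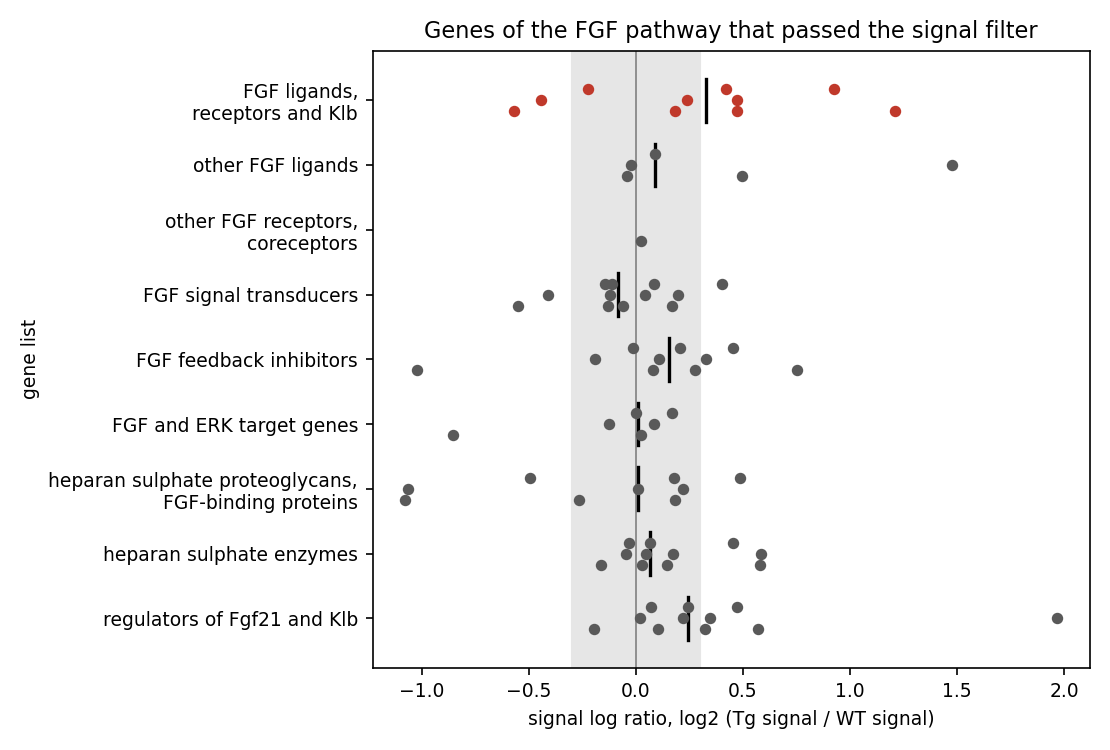
Signal log ratios of the genes that passed the filter, 1 point per gene, in the FGF genes (red) and 8 lists of related genes (grey points). Vertical bars are medians of lists with at least 3 genes, points are spread vertically for legibility only, and the band in grey runs from -0.3 to 0.3. Most points of the pathway lists lie within the band, and *Ppara* at 1.97 and *Sdc1* at -1.08 lie farthest out.

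The labels were checked on the same arrays. *Adipoq* and *Fabp4*, genes of adipocytes, were bright on both arrays, with 0.09 and 0.04 on their brightest probe sets. *Ucp1* and *Cidea* of brown adipocytes had 5.98 and 4.44, while *Zic1* and *Lhx8* were near background. *Xist* was bright in both genotypes, and no probe set of 3 Y-linked genes exceeded 39.3, which matches the female sex in the labels. No probe set is annotated to perilipin, so that the transgene itself was not checked. Of 7 reference genes, 6 had values from -0.14 to 0.21, and *Gusb* had -0.62.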

How the data were processed

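Perigonadal WAT RNA was hybridised to Affymetrix mouse genome arrays, 1 array of pooled RNA per genotype. GeneChip Operating Software gave the intensity values that the authors deposited, and the submitters' processing notes name MAS5. They cover 45101 probe sets, with a 2% trimmed mean of 500.0 on each array, and were not filtered on Present calls. Genotypes came from the sample labels.

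Signal log ratios were computed from the deposited signals with no further normalization or pseudocount. Counts leave out 64 control probe sets. Of the others, 34945 had a single gene symbol in the platform annotation, 34741 of them updated through RefSeq by Entrez ID, 932 had several and 9160 were not listed. Each gene was read from the probe set with its highest mean log2 signal. Summed signals of lists cover these probe sets of all measured genes, whether or not they passed the filter. No test was run on 1 array per genotype, and the number of arrays limits the precision.

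The genes, lists and filter were chosen with earlier results of these data known. All probe sets of the 10 genes, other FGF genes that passed, up to 3 genes with the largest values in each list and check genes were named by rule. Further genes of the lists, among them *Atf4*, *Mlxipl*, *Dusp6* and *Etv5*, were named outside this rule. Alternatives were median centring, quantile normalization, loess (span 0.3), a pseudocount of 25.1, a floor of 56.9, no filter, a filter at 470.5, rounding to 1 decimal, a gene's median or second-brightest probe set, and probe sets without a suffix. The computation was tested on simulated data. Versions were numpy 2.4.6, pandas 2.3.3, statsmodels 0.14.6 and matplotlib 3.10.9 under Python 3.11.15. Scanner files and probe positions were not analysed here.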

Additional observations from a re-analysis of the deposited data

How the results depend on the processing

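The direction of all 10 genes on their brightest probe sets was the same under each scaling of the arrays and treatment of low signals. Over these settings, *Fgf10* ranged from 0.82 to 1.01, *Fgfr3* from 1.09 to 1.29, *Fgf13* from -0.60 to -0.48, *Fgf21* from 0.38 to 0.55 and *Fgf2* from -0.45 to -0.34. Most of these settings could not have changed a direction. A pseudocount added to both signals cannot turn the sign of a ratio, and the floor left each value as deposited. Either kind of centring shifted all genes alike, by less than the smallest value, that of *Klb* (0.183 as deposited, 0.179 and 0.267 centred). Only quantile normalization and loess could have changed a direction. For *Fgf21* and *Fgf2*, the filter had already fixed it. Centring on the median of all signals of each array, a setting chosen after the data were seen, brought *Fgf7* to 0.32, and of all probe sets past a threshold 59.6% were then over 0.3, against 45.3% as deposited. The choice of probe set mattered more. On the second-brightest probe set, *Fgfr1* had -0.55, *Fgfr2* -0.13 and *Fgfr3* -2.22, those of *Fgfr2* and *Fgfr3* being near background, *Fgf13* had -1.48, *Fgf1* had -0.74, the median of the genes that passed was -0.64, and 8 pathway genes were over 0.3, against 13. With the median over probe sets, *Fgfr3* had -0.51, its near-background probe set included, and 11 pathway genes were under -0.3, against 7. With the stricter filter, which keeps fewer probe sets, 1 FGF probe set was over 0.3, against 6, the median of the genes was -0.020, against 0.33, and 1671 of all probe sets were over 0.3 and 1742 under -0.3. With no filter, 12217 were over 0.3 and 13707 under -0.3, against 4232 and 5101. No paired analysis was possible because each genotype has 1 array. Brightness limits *Fgf2*, *Fgf21* and the near-background probe sets.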
